A study of Rattus norvegicus with 10 samples.

Results

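The carriers described here are the proteins that move sugars, monocarboxylates, vitamins, nucleosides, hormones and organic ions across cell membranes. They were taken by gene symbol from 7 families, namely Slc2a (glucose and related sugars), Slc5a (sodium-coupled carriers), Slc16a (monocarboxylates), Slc19a (folate and thiamine), Slc22a (organic cations and anions), Slc29a (nucleosides) and Slco (organic anion transporting polypeptides). Of the 32623 genes in the deposited table, 75 symbols belong to these families. A gene was kept where FPKM, a read level scaled for transcript length and library depth, reached 0.5 in at least 5 of the 10 libraries, which left 43 carriers among 15169 genes.

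Cortical poly(A) RNA was sequenced from adult male Sprague-Dawley rats, with 5 libraries from rats given electroacupuncture (EA) and 5 from controls. That each library came from a rat of its own is not stated outright. EA rats received current through needles at the points Baihui and Shuigou, at 3 mA and 2/100 Hz for 40 min. In controls the binding alone was applied over an equal time. The cortex was taken after saline perfusion under pentobarbital, so each library mixes all cell types of that tissue. The study asked which genes differ after a stimulation said to open the blood-brain barrier. Deposited counts summed to between 47843590 and 60941939 per EA library and between 55223193 and 61707722 per control library. Markers of neurons summed to 1428 to 1991 FPKM in EA libraries and 1643 to 1786 FPKM in control libraries. The 9 choroid plexus markers summed to 1.44 to 5.52 FPKM in EA libraries and 1.88 to 6.83 FPKM in control libraries. Of these, Ttr and Kl stayed below an FPKM of 1 in every library, while Kcnj13 and Aqp1 reached up to 3.75 and 2.21 FPKM. EA 2 and EA 5 stood apart in structural RNA, with Rn7sl1 (signal recognition particle RNA) at 188 and 298 FPKM, against 4.71 to 11.95 FPKM in the other EA libraries and 4.70 to 11.98 FPKM in control libraries.

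In the brain, hydrophilic nutrients cannot cross the sealed capillary wall on their own, and carriers in the endothelial membranes bring them in. Glucose enters by facilitated diffusion, lactate and ketone bodies move with a proton, and thyroid hormone, folate, thiamine and biotin each have carriers of their own. Organic anion carriers work in both directions and move hormones, conjugates and drugs. Other members of the same families serve neurons, glia, lysosomes or the meninges rather than the vessel wall. Carriers known for enrichment in brain endothelium (a list of 14 symbols, of which 12 passed the filter) are therefore set beside the other 31.

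Of the 12 carriers of the barrier list, 11 had a log2 fold change below 0 (EA over control), with a median of -0.17. The list itself was not tested. For the other 31 carriers, 22 lay below 0 and the median was -0.08. Over all 15169 genes, 50.5% lay below 0 and the median was -0.0018. A log2 fold change of -0.1 or less was found for 9 of the 12 barrier carriers and 14 of the 31 others, and for 25.7% of all genes. The lowest fold changes on the barrier list were those of Slc19a3, Slc22a8 and Slco2a1. The median of the other carriers was -0.04 without EA 2 or EA 5, -0.05 without control 2 or control 5, and -0.03 without both EA 2 and EA 5.

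By edgeR's quasi-likelihood test with Benjamini-Hochberg adjustment over all genes and a fold above 1.2, 0 of 43 carriers were called, where 0.0198% of all genes were. At an unadjusted p under 0.05, 5 carriers were lower and 1 was higher in EA, against 7.15% and 6.59% of all genes tested. For all 43 carriers that share lies close to the background of 13.7% in either direction. On the barrier list 3 of 12 were lower at that level, and among the others 2 of 31 were lower and 1 was higher. DESeq2 called 1 carrier lower, Slco2b1, where it called 1.09% of all genes in either direction, 0.639% lower and 0.455% higher. The FPKM ranges of the groups did not overlap for 2 carriers, both lower in EA, and for 3.11% of all genes, 2.25% with EA lower and 0.85% with EA higher. Leaving out a single library moved the counts at an unadjusted p under 0.05, to 3 lower without control 5 and to 3 higher without EA 3. They moved to 2 higher without EA 2, control 2 or control 3. The share of all genes was not counted in those fits.

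**Figure D1:**
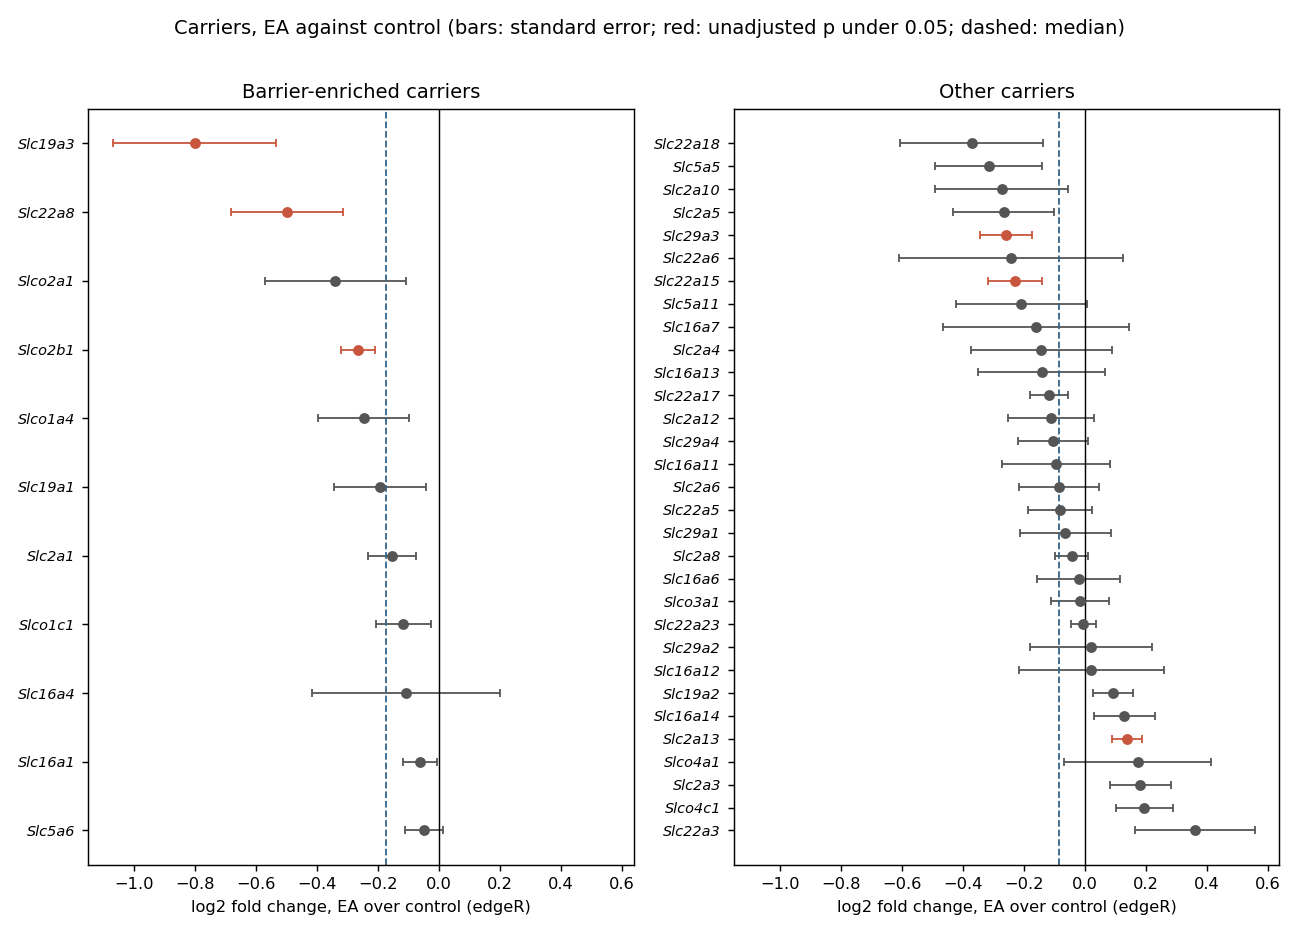
Log2 fold change (EA over control, edgeR, x axis) of 42 of the carriers (y axis), with its standard error, barrier-enriched carriers on the left and the other carriers on the right. Red marks an unadjusted p under 0.05, and the dashed lines stand at the medians over the whole lists, -0.17 on the left and -0.08 on the right. All 11 points drawn on the left lie below 0.

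Slco2b1, which carries steroid sulphates and many drugs and in mouse is found in endothelium and microglia, separated the groups without overlap. Its FPKM was 10.6, 9.73, 11.3, 10.8 and 10.8 in EA libraries 1 to 5, against 13.2, 14.0, 12.2, 12.7 and 12.9 in control libraries 1 to 5. Every EA library lay below every control library. Between the groups the log2 fold change was -0.27 (standard error 0.06, adjusted p = 0.172 with edgeR and 0.00965 with DESeq2), on 2427 to 2757 counts in EA libraries and 3074 to 3823 counts in control libraries. The study names this gene among those changed on these samples, so its place on the barrier list is not independent evidence, and without it the median of that list is -0.15.

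Slc19a3, a thiamine carrier of the capillary wall, had the largest difference of the 43 carriers. Its FPKM was 1.65, 2.40, 1.79, 4.42 and 2.13 in EA libraries 1 to 5 and 3.16, 4.33, 3.91, 6.61 and 4.00 in control libraries 1 to 5. EA 4 alone lay above some control libraries, and the other EA libraries lay below all of them. On the log2 scale the difference was -0.80 (standard error 0.27, edgeR adjusted p = 0.245), -1.11 without EA 4 and -0.62 without control 4. With DESeq2 the adjusted p was 0.0588. The related folate carrier Slc19a1 had an FPKM of 3.19, 2.31, 2.59, 3.30 and 2.05 in EA libraries 1 to 5 and 2.66, 3.28, 2.65, 3.43 and 3.63 in control libraries 1 to 5, which overlap (log2 fold change -0.19, standard error 0.15). That value was -0.10 without EA 5 and -0.013 without EA 2 and EA 5. Slc19a2, the thiamine carrier found in most cells and the family's most abundant member, had an FPKM of 9.68, 8.01, 8.50, 9.87 and 9.47 in EA libraries 1 to 5 and 8.87, 8.99, 8.02, 9.36 and 8.06 in control libraries 1 to 5. Its log2 fold change was 0.09 (standard error 0.07), or 0.14 without EA 2 and EA 5, with the ranges overlapping.

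Slc22a8, an organic anion carrier that removes drugs and metabolites from brain fluid, was the next in size. Its FPKM was 13.6, 8.73, 8.95, 13.6 and 8.52 in EA libraries 1 to 5 and 14.5, 16.1, 9.81, 17.8 and 18.5 in control libraries 1 to 5. All control libraries but control 3 lay above all EA libraries. The difference was -0.50 on the log2 scale (standard error 0.18, edgeR adjusted p = 0.272), and -0.31 without EA 2 and EA 5 (adjusted p = 0.655).

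The upstream sequences of Slco2b1, Slc19a3 and Slc22a8 are shown because these are the barrier carriers at an unadjusted p under 0.05, with Slc2a1, the most abundant barrier carrier, beside them. Each is the 250 bases before the gene's start in RefSeq, build GRCr8, 5′ to 3′ on the gene's strand, at chr1:163408066-163408315 (minus) for Slco2b1, chr9:91747130-91747379 (minus) for Slc19a3, chr1:214927034-214927283 (plus) for Slc22a8 and chr5:138002272-138002521 (plus) for Slc2a1. Capitals mark matches on either strand to the GC box GGGCGG, the ETS core CCGGAA, the E-box CACGTG or the TATA box TATAAA, and none of the marked matches overlap.
Slco2b1: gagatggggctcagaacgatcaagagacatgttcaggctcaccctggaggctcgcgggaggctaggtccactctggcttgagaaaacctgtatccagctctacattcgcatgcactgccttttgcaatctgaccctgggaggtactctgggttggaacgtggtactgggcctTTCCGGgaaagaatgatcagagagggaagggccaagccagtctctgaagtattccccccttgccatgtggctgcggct
Slc19a3: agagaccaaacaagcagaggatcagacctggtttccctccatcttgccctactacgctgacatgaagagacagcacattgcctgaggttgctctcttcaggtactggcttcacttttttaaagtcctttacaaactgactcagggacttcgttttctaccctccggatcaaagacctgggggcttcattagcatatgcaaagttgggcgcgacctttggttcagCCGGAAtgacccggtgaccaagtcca
Slc22a8: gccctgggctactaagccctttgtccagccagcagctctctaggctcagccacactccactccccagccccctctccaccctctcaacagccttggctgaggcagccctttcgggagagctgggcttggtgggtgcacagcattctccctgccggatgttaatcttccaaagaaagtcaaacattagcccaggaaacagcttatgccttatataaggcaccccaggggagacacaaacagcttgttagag
Slc2a1: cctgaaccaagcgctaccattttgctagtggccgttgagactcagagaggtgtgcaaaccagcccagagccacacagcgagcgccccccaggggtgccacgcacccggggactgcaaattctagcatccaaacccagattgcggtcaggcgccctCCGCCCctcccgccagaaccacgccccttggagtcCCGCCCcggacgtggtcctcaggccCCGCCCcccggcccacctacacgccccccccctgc
Slco2b1 and Slc19a3 each held 1 match to the ETS core, Slc2a1 held 3 to the GC box, and the window of Slc22a8 held no match. The ETS core occurs in 12.6% of all 33469 such windows and in 5 of the 33 carriers that the table holds, and the GC box in 30.5% of windows and 19 of those carriers. Unlike the carriers, the windows were not limited to genes that passed the FPKM filter, so these shares are not directly comparable. With 17 CpG pairs and 68.4% G or C, the Slc2a1 window was richer than the median window (5 pairs, 51.2%), while Slc22a8 had 2 pairs and 56% G or C. These matches are counts of letters and were not tied to any measured binding.

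Slc2a1, the glucose carrier of the capillary wall and of astrocytes, was the most abundant barrier carrier. Its FPKM was 101, 114, 117, 109 and 88.2 in EA libraries 1 to 5 and 113, 123, 124, 129 and 113 in control libraries 1 to 5. EA 2 and EA 3 lay within the control range and the other EA libraries below it, at a log2 fold change of -0.15 (standard error 0.08, edgeR adjusted p = 0.408), and of -0.087 without EA 5.

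Slco1c1, which carries thyroxine into the brain, had an FPKM of 40.4, 40.2, 39.2, 39.1 and 45.6 in EA libraries 1 to 5 and 56.0, 42.3, 42.9, 41.4 and 42.0 in control libraries 1 to 5. Control 1 stood above every other library, and EA 5 above the other EA libraries. The fold change on the log2 scale was -0.12 (standard error 0.09) and -0.01 without control 1. Slco1a4, a carrier of bile acids and steroid conjugates, had an FPKM of 18.6, 15.9, 11.6, 16.1 and 16.3 in EA libraries 1 to 5 and 26.02, 16.9, 14.9, 17.4 and 19.005 in control libraries 1 to 5. Control 1 was again the highest of all libraries, and the log2 fold change was -0.25 (standard error 0.15), -0.09 without control 1 and -0.16 without EA 3. The close relatives Slco1a1 and Slco1a6 were listed at 0 and Slco1a2 near 0. How reads shared between these copies were counted is not given in the sources used here, so the Slco1a4 level is uncertain.

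Slco2a1, which takes up prostaglandins, had an FPKM of 0.999, 1.05, 1.11, 2.05 and 1.37 in EA libraries 1 to 5 and 1.58, 1.62, 1.03, 2.17 and 2.03 in control libraries 1 to 5. EA 4 was the highest EA library, as for Slc19a3, and control 3 the lowest control. The fold change was, on the log2 scale, -0.34 (standard error 0.23, edgeR adjusted p = 0.553) and -0.55 without EA 4.

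The groups overlapped for Slc16a1, Slc5a6 and Slc16a4. Slc16a1, which carries lactate and ketone bodies, had an FPKM of 14.5, 14.2, 13.0, 14.4 and 14.2 in EA libraries 1 to 5 and 16.3, 14.0, 14.7, 15.5 and 13.9 in control libraries 1 to 5, a log2 fold change of -0.06 (standard error 0.06). Slc5a6, the carrier of biotin and pantothenate and the most abundant of the Slc5a family, had an FPKM of 13.7, 14.9, 15.6, 15.9 and 13.9 in EA libraries 1 to 5 and 14.0, 16.04, 16.3, 16.8 and 14.7 in control libraries 1 to 5. Its log2 fold change was -0.05 (standard error 0.06). For both carriers the difference was close in size to its standard error. It was -0.014 for Slc16a1 without control 1, and for Slc5a6 it was -0.017 without EA 5, -0.019 without EA 1, -0.024 without control 4, -0.026 without control 3, -0.071 without control 1 and -0.076 without EA 3.

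Slc16a4, an orphan of the monocarboxylate family, had an FPKM of 1.32, 0.852, 0.910, 1.901 and 2.03 in EA libraries 1 to 5 and 1.80, 1.21, 0.782, 1.62 and 2.22 in control libraries 1 to 5. The fold change on the log2 scale was -0.11 (standard error 0.31), and from -0.27 without EA 5 to 0.07 without control 5, its sign turning without EA 2 or EA 3 as well.

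**Figure D2:**
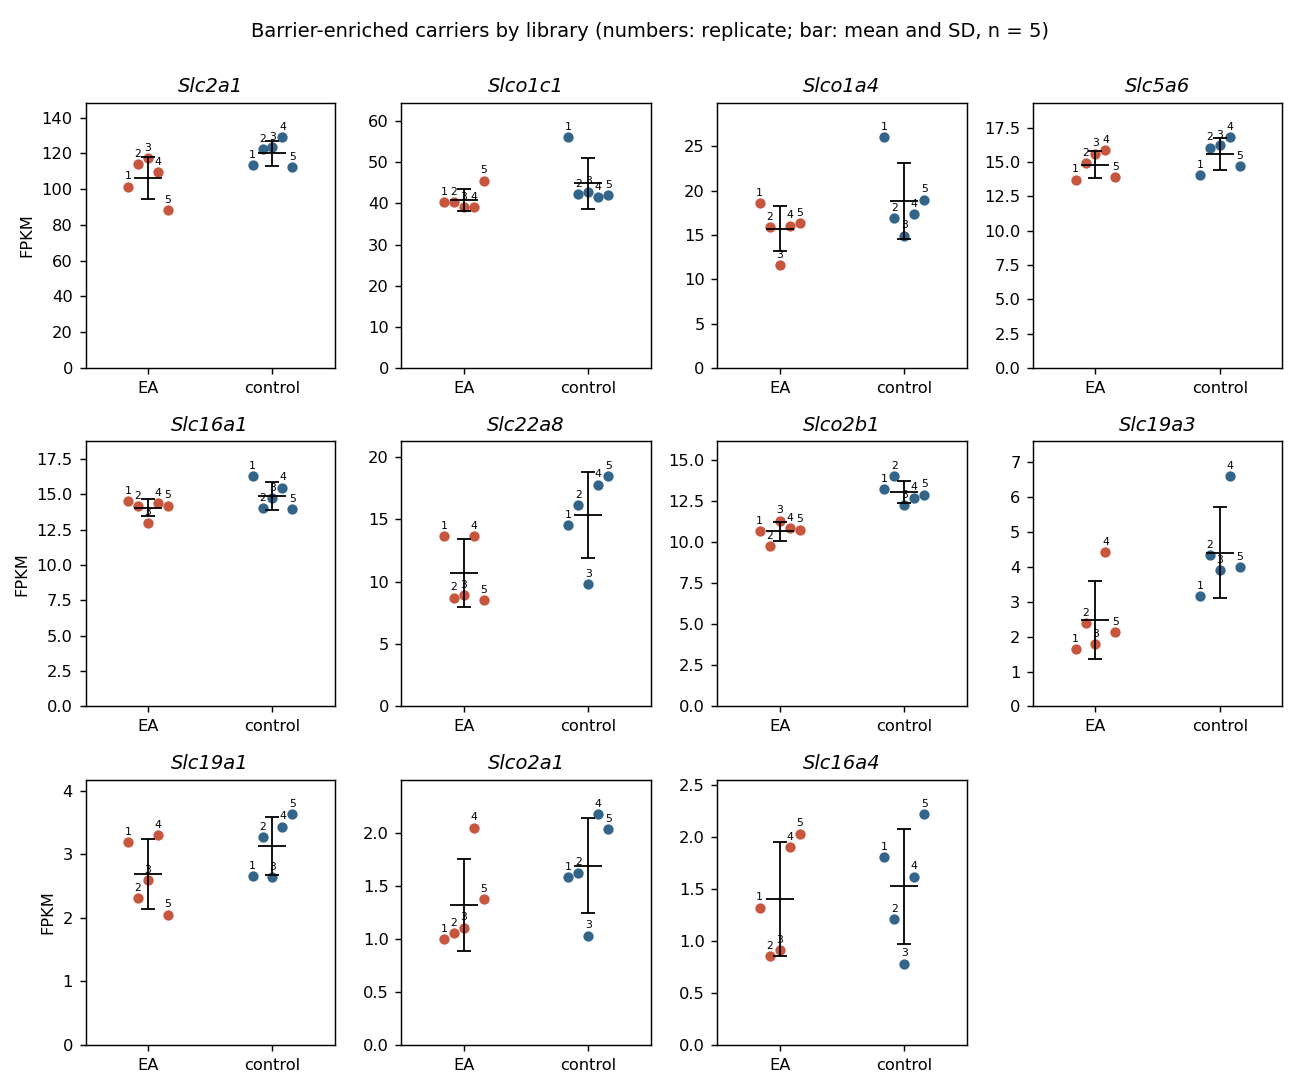
FPKM (y axis) of 11 barrier-enriched carriers in each EA library (left, red) and each control library (right, blue), with replicate numbers beside the points and the mean with its SD as a bar (n = 5 each). The Slco2b1 points do not overlap between groups, at 9.73 to 11.3 in EA and 12.2 to 14.0 in control, and control 1 stands above the others for Slco1c1 and Slco1a4.

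To compare the lists by library, log2(FPKM + 0.1) was averaged over each list and set relative to the control mean. The barrier carriers stood at -0.26, -0.37, -0.36, 0.01 and -0.25 in EA libraries 1 to 5 and at 0.02, -0.01, -0.23, 0.15 and 0.07 in control libraries 1 to 5. EA 4 lay among the controls and control 3 among the EA libraries, so the groups overlapped. For the other carriers the range was -0.18 to 0.06 in EA libraries and -0.07 to 0.06 in control libraries. The same mean over all genes tested was -0.07 to 0.01 in EA libraries, lowest in EA 3 and highest in EA 4. In control libraries it was -0.03 to 0.03. Barrier carriers relative to other carriers stood at -0.20 to -0.05 in EA libraries (median -0.19) and at -0.20 to 0.14 in control libraries (median 0.04). The difference of the medians of fold changes, barrier minus other, was -0.09. It was -0.16 without EA 4, EA 5 or control 3, -0.14 without EA 1 and -0.044 without control 1, so single libraries moved it by more than 1.5 times.

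The summed FPKM of 14 endothelial markers was 121 to 136 in EA libraries and 138 to 152 in control libraries, without overlap. All 13 markers that passed the filter lay below 0, where 50.5% of all genes did, with a median log2 fold change of -0.12. Of these 3 were lower at an unadjusted p under 0.05, against 7.15% of all genes, and 0 were called by edgeR, against 0.0198%. By library, the mean of the endothelial markers and that of the barrier carriers ran together in part. EA 2 was the lowest EA library for both, at -0.31 and -0.37, and EA 4 the highest, at -0.15 and 0.01. Control 3 was the lowest control for the barrier carriers, at -0.23, and stood at -0.03 for the endothelial markers, where control 2 was lowest at -0.09. The relation between these means was not tested. Cldn5, a defining claudin of brain vessels, was listed at 0 in every EA library and at most 1.25 in control libraries. With a control mean of 0.309 FPKM it fell below the filter and was not tested, so no difference is read from it.

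Of the other cell types, all 6 pericyte markers lay below 0 (3 at an unadjusted p under 0.05), with summed FPKM of 130 to 144 in EA libraries and 138 to 157 in control libraries. All 7 oligodendrocyte markers lay below 0 (3 at that level), with a median of -0.13 and summed FPKM of 889 to 1148 in EA libraries and 1004 to 1448 in control libraries, and their ratio of means of 0.837 was below that of the endothelial sum. Blood cell markers had a median of -0.9998 over 4 tested genes, 3 of them below 0 and 2 lower at that level, with summed FPKM of 6.99 to 16.8 in EA libraries and 8.56 to 43.8 in control libraries. Of 7 neuronal markers 6 lay above 0 (2 higher at that level). Below 0 lay 6 of 10 microglial markers (1 lower at that level) and 3 of 6 astrocyte markers (1 lower at that level). In bulk tissue, fewer cells of a type and less RNA per cell cannot be told apart, and the part of these markers in the carrier differences was not tested.

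The ratio of means, EA over control, was 0.889 for the endothelial sum. Slc19a3 at 0.563, Slc22a8 at 0.697, Slco2a1 at 0.780, Slco2b1 at 0.818, Slco1a4 at 0.833, Slc19a1 at 0.859 and Slc2a1 at 0.883 lay below that ratio, and the 5 other barrier carriers lay above it. As a percentage of the endothelial sum, Slco2b1 stood at 7.95 to 8.88% in EA libraries and 8.48 to 10.2% in control libraries, so that its groups overlapped on this scale. Slc2a1 stood at 72.9 to 93.1% in EA libraries and 74.1 to 90.3% in control libraries.

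**Figure D3:**
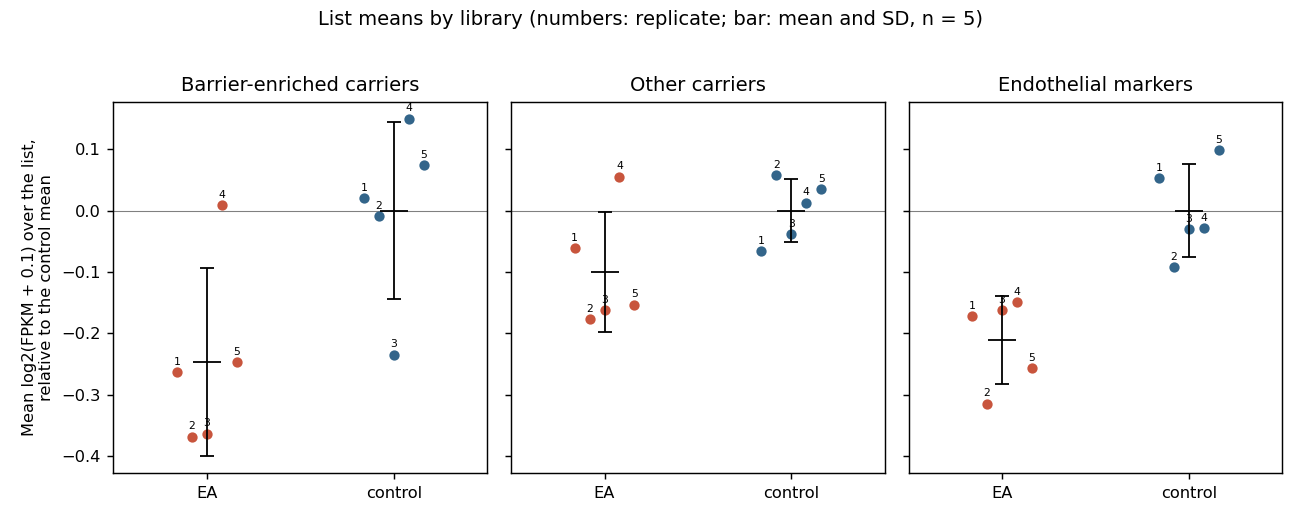
Mean log2(FPKM + 0.1) over each list relative to the control mean (y axis) for the barrier-enriched carriers, the other carriers and the endothelial markers, in each EA library (left, red) and each control library (right, blue), with replicate numbers and the mean with its SD (n = 5 each). The endothelial markers separate the groups, at -0.31 to -0.15 in EA and -0.09 to 0.10 in control, while both carrier lists overlap.

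Slc22a6, chosen after its values were seen, varied among libraries of both groups. This gene, an organic anion carrier, lies next to Slc22a8 on chromosome 1 (224824799 to 224833259 in Rnor_6.0, with Slc22a8 at 224800252 to 224818482) and had an FPKM of 4.82, 1.202, 3.15, 5.77 and 2.67 in EA libraries 1 to 5 and 3.01, 4.09, 2.59, 4.53 and 6.94 in control libraries 1 to 5. The summed FPKM of 9 meningeal markers, such as the collagens Col1a1 and Col3a1 and decorin, was 64.9, 31.1, 41.7, 90.9 and 50.3 in EA libraries 1 to 5 and 44.5, 59.3, 41.8, 79.5 and 88.2 in control libraries 1 to 5. The libraries with high Slc22a6, which are EA 1, EA 4, control 4 and control 5, were also those with the most meningeal RNA. EA 1 and EA 4 were likewise the highest EA libraries for Slc22a8. Other libraries went the other way. Control 1, with a meningeal sum of 44.5, had 14.5 FPKM of Slc22a8, above EA 4 with 13.6 FPKM at a sum of 90.9. Slc19a3 was lowest of all in EA 1, at 1.65 FPKM, where the sum was 64.9. The groups overlapped in meningeal RNA. The 9 choroid plexus markers summed to 4.27, 1.44, 4.18, 5.52 and 3.40 FPKM in EA libraries 1 to 5. In control libraries 1 to 5 they summed to 3.48, 4.09, 1.88, 5.90 and 6.83 FPKM. The part of meningeal or choroid plexus RNA in the values of Slc22a6, Slc22a8 and Slc19a3 was not tested.

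**Figure D4:**
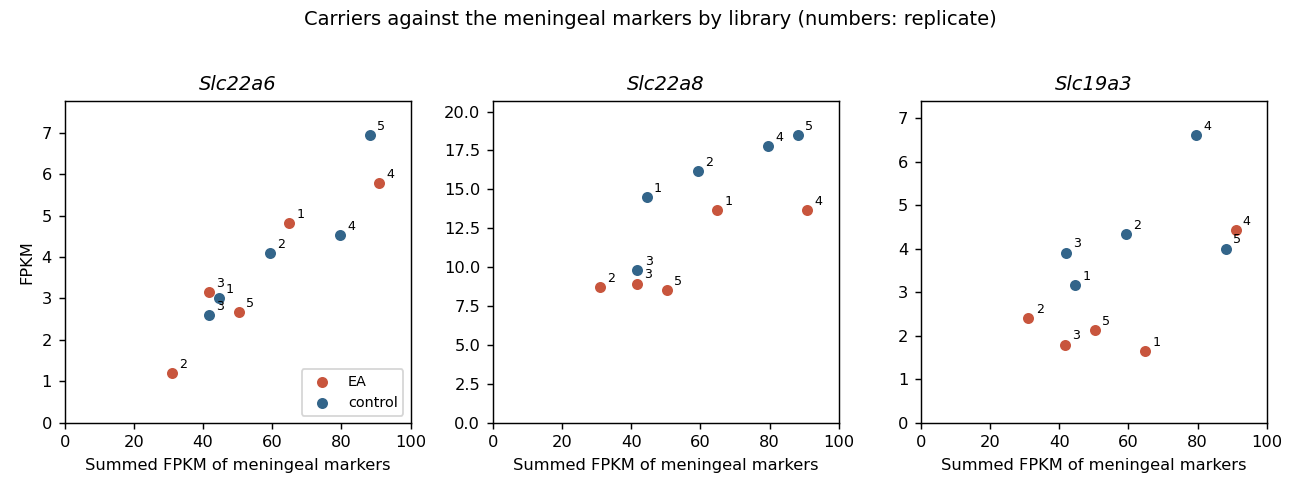
FPKM of Slc22a6, Slc22a8 and Slc19a3 (y axis) against the summed FPKM of 9 meningeal markers (x axis) in each EA library (red) and each control library (blue), with replicate numbers. Slc22a6 was lowest in EA 2 (1.202), which had the lowest marker sum (31.1), and highest in control 5 (6.94), where the sum was 88.2.

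Among the other carriers, Slc29a3, which exports nucleosides from lysosomes, was lower in EA libraries without overlap. Its FPKM was 3.39, 3.28, 3.64, 3.84 and 3.53 in EA libraries 1 to 5 and 3.96, 4.03, 4.47, 5.13 and 3.90 in control libraries 1 to 5. The gap between the highest EA library and the lowest control was narrow, at 3.84 against 3.90 FPKM. Its log2 fold change was -0.26 (standard error 0.09, edgeR adjusted p = 0.238). Slc29a1 and Slc29a2, the nucleoside carriers of the cell surface, stood at -0.06 and 0.02 and the monoamine carrier Slc29a4 at -0.10, each with an unadjusted p above 0.05.

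Slc22a15, a carrier of zwitterions, had an FPKM of 3.22, 3.23, 3.27, 2.79 and 3.52 in EA libraries 1 to 5 and 4.13, 3.83, 3.37, 3.79 and 3.96 in control libraries 1 to 5. Only EA 5 and control 3 broke the separation of the groups. The difference was -0.23 on the log2 scale (standard error 0.09, edgeR adjusted p = 0.296). Slc22a17, the lipocalin receptor and the most abundant of the 43 carriers, had an FPKM of 180, 185, 171, 193 and 171 in EA libraries 1 to 5 and 167, 217, 208, 213 and 188 in control libraries 1 to 5. Control 1 lay below all EA libraries, and the fold change was -0.12 (standard error 0.06) on the log2 scale. Slc22a5, the carnitine carrier, and the orphan Slc22a23 stood at -0.08 and -0.004 on the same scale. Slc22a3, which takes up monoamines outside synapses, had the highest fold change of the 43 at 0.36 (standard error 0.20, edgeR adjusted p = 0.439), on 73 to 172 counts in EA libraries and 94 to 131 counts in control libraries, so that depth limits it. The low Slc22a18 stood at -0.37 (standard error 0.23).

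Slc2a13, the proton-coupled carrier of myo-inositol in neurons and glia, was the 1 carrier higher in EA libraries at an unadjusted p under 0.05. Its FPKM was 18.5, 20.7, 16.7, 18.7 and 19.1 in EA libraries 1 to 5 and 16.9, 17.8, 16.7, 17.7 and 17.2 in control libraries 1 to 5. EA 3 lay just below all controls and the other EA libraries above them. Its log2 fold change was 0.14 (standard error 0.05, edgeR adjusted p = 0.257), and that p was 0.139 to 0.424 when single libraries were left out. Without EA 2 and EA 5 the fold change was 0.09.

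Within the glucose family the neuronal carrier Slc2a3 had the opposite sign to Slc2a1, with 11.6 ± 0.80 FPKM in EA libraries and 10.4 ± 1.65 FPKM in control libraries (SD, n = 5 each), a log2 fold change of 0.18 (standard error 0.10, edgeR adjusted p = 0.447). Control 1 was the lowest, at 7.89 FPKM. Slc2a5, the fructose carrier of microglia, averaged 3.04 FPKM in EA libraries and 3.73 FPKM in control libraries, at -0.26 (standard error 0.17), while the microglial markers summed to 212 to 271 FPKM in EA libraries and 244 to 258 FPKM in control libraries. Slc2a8, an intracellular carrier, and Slc2a6 of lysosomes had log2 fold changes of -0.04 and -0.08. The remaining members Slc2a12, Slc2a10 and the insulin-responsive Slc2a4 stood at -0.11, -0.27 and -0.14, at mean levels of 2.54, 0.635 and 0.952 FPKM.

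The other monocarboxylate carriers were spread around 0, and 0 of the 6 reached an unadjusted p under 0.05 with edgeR, against 13.7% of all genes. DESeq2 called 0 of the 6, against 1.09% of all genes. The neuronal lactate carrier Slc16a7 was scarce, at a mean of 0.916 FPKM, and stood at -0.16 (standard error 0.31) on the log2 scale. Slc16a14 stood at 0.13, Slc16a12, a creatine carrier, at 0.02, and Slc16a6 at -0.02. Slc16a11 and Slc16a13 stood at -0.09 and -0.14. These genes are neighbours on chromosome 10 (56822756 to 56826479 and 56827594 to 56831243 in Rnor_6.0) and face each other on opposite strands. Both were highest in EA 1 and EA 4 among the EA libraries, at 7.32 and 9.70 FPKM for Slc16a11 and 4.29 and 3.95 FPKM for Slc16a13.

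Of the sodium-coupled family, Slc5a11, a myo-inositol carrier, and Slc5a5, the iodide carrier, stood at -0.21 (standard error 0.21) and -0.31 (standard error 0.18) on the log2 scale, at mean levels of 1.21 and 0.987 FPKM. The Slco members outside the barrier list were Slco3a1 at -0.02, Slco4a1, a thyroid hormone carrier, at 0.17 and Slco4c1 at 0.20 (standard error 0.09, edgeR adjusted p = 0.386). Slco4c1 averaged 1.46 ± 0.13 FPKM in EA libraries and 1.297 ± 0.09 FPKM in control libraries (SD, n = 5 each), and its ranges overlapped.

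All 43 carriers reached an FPKM of 0.5 in at least 8 of the 10 libraries, so none passed the filter through a single group. Just inside the filter were Slc22a3, Slc2a10, Slc22a18 and Slc16a7 with means of 0.609, 0.635, 0.669 and 0.916 FPKM. Just outside were the lactate exporter Slc16a3 (0.489 FPKM), the glucose carrier Slc5a2 (0.448 FPKM) and the choline carrier Slc5a7 (0.360 FPKM). Of the 32 symbols left out, 29 reached 0.5 in no library.

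Among partners and enzymes of the same substrates, 37 of 40 listed genes passed the filter, and 6 were lower and 2 higher in EA at an unadjusted p under 0.05, against 7.15% and 6.59% of all genes. Arrdc4 and Txnip, related arrestins that draw glucose carriers off the cell surface, had fold changes of opposite sign. Arrdc4 had an FPKM of 3.19, 2.72, 2.46, 3.09 and 3.13 in EA libraries 1 to 5 and 1.89, 1.99, 1.80, 2.12 and 2.43 in control libraries 1 to 5, so that every EA library lay above every control. Its log2 fold change was 0.53 (standard error 0.10, adjusted p = 0.137 with edgeR and 9.04e-04 with DESeq2). Txnip averaged 15.7 ± 3.20 FPKM in EA libraries and 19.96 ± 1.28 FPKM in control libraries (SD, n = 5 each), a log2 fold change of -0.32 (standard error 0.11, edgeR adjusted p = 0.245).

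Pnp, which splits purine nucleosides, was lower without overlap, at 71.7 to 79.6 FPKM in EA libraries and 81.8 to 88.8 FPKM in control libraries (log2 fold change -0.15, standard error 0.04, edgeR adjusted p = 0.201). Bsg, the partner that brings Slc16a1 to the membrane and a marker of brain endothelium, averaged 240 ± 21.0 FPKM in EA libraries and 269 ± 15.9 FPKM in control libraries (SD, n = 5 each), at -0.14 (standard error 0.06). Btd, which frees biotin, stood at -0.28, Cpt1a of fatty acid oxidation at -0.18 and Isyna1, which makes inositol, at -0.18. The thyroid hormone receptor Thrb was the other gene on the higher side, at 0.13 (standard error 0.06), while Dio2, which activates thyroid hormone, stood at 0.15 with an edgeR adjusted p of 0.699. The lactate dehydrogenases Ldha and Ldhb stood at 0.05 and -0.05.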

How the data were processed

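Poly(A) RNA of 10 cortices was sequenced, and labels give the group and a replicate number. That each library is a separate rat is not stated outright, so p-values measure the spread between these libraries. The authors trimmed reads, aligned them with HISAT2, assembled them with StringTie and computed FPKM with ballgown; these FPKM values were deposited, with 0.0001 in place of 0. The submitters' notes name HISAT2 2.0, StringTie 1.3.0, Bowtie 0.12.2 and Rnor_6.0. The authors also deposited an estimated count per gene and library, always whole, with no account of its making.

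Counts of genes with FPKM of at least 0.5 in 5 libraries (99.9% of all counts) were tested with edgeR 4.0.16 (TMM, quasi-likelihood F test) in R 4.3.3. The call needed an adjusted p under 0.05 and a fold above 1.2. Alternatives used DESeq2 1.42.0, limma 3.58.1 on log2(FPKM + 0.1) or log2(FPKM + 1), upper-quartile scaling, other filters, a replicate block and left-out libraries. Standard errors are the fold change over the root of F. The edgeR step was tested on simulated data.

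Members and lists were chosen with earlier results of these data known. Named in full were the barrier list, carriers at an unadjusted p under 0.05 or without overlap, and the highest of each family. Per-library values were given for these. Other carriers and related genes were named after their values were seen. Lists were described by counts and medians and not tested. A carrier of the barrier list enters its counts and medians and is not reported here by itself.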

Additional observations from a re-analysis of the deposited data

Results flagged for a closer look

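Among 86 groups of 5 libraries (43 carriers, each in EA and in control), 7 had a library far from the rest, where 1 in 20 is due by chance. In EA libraries, EA 4 stood high for Slc19a3 (4.42 FPKM, others 1.65 to 2.40), EA 2 for the iodide carrier Slc5a5 (1.21 FPKM, others 0.771 to 0.798), EA 1 for Slc16a14 (3.78 FPKM, others 3.31 to 3.42) and EA 5 for Slco1c1 (45.6 FPKM, others 39.1 to 40.4). EA 3 stood low for Slc16a1 (13.0 FPKM, others 14.2 to 14.5). In control libraries, control 1 stood high for Slco1c1 (56.0 FPKM, others 41.4 to 42.9) and control 2 for Slc16a7 (1.28 FPKM, others 0.862 to 0.935).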

How the results depend on the processing

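The median of the barrier-enriched carriers stayed below 0 in all 20 alternatives (-0.26 to -0.12), and so did its difference from the other carriers (-0.16 to -0.044). Leaving out single libraries gave -0.26 to -0.12 for the barrier median, -0.10 to -0.04 for the other carriers and -0.16 to -0.044 for the difference, which was -0.16 without EA 4 and -0.16 without control 3. With the strict list of 6 barrier carriers the median was -0.20. Counts of carriers called were 0 higher and 0 lower without any 1 library, and DESeq2 called 1 lower, Slco2b1 (-0.26). At an unadjusted p under 0.05, leaving out single libraries gave 1 to 3 higher and 3 to 7 lower carriers. Without EA 2 and EA 5 these were 0 higher and 3 lower, on fewer samples. Limma gave 0 higher with either pseudocount, and the cause was not tested. The replicate number as a block gave 8 lower carriers and 1 higher, at an unadjusted p under 0.05. The share of all genes at that level was not counted for these alternatives, so their counts are not read as a result about carriers. The deviations of same-numbered EA and control libraries from their group means had correlations of 0.0170 to 0.0499, and 2 of 5 matched best with their own number. Nothing in the labels states that a number is shared, so the main fit did not pair the libraries. So few correlations cannot exclude a shared day or batch. Depth limits the scarce carriers, such as Slc22a18 with 34 to 66 counts in EA libraries.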
